A study of Ovis aries with 6 samples.

Results

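The genes described here are 4 EGF-like ligands, AREG, EREG, BTC and HBEGF, and 3 receptors of the ERBB family, EGFR, ERBB2 and ERBB3. They were taken by symbol as a fixed list and make up 7 of the 30574 genes in the count tables. Single-cell RNA sequencing was done on ovaries of Hu sheep, a Chinese breed known for large litters, with 1 library for each of 6 ewes. The question behind the design was which ovarian cells differ in transcription between ewes of high and low litter size. The HLS group held 3 ewes with litters of 3 lambs or more and the LLS group held 3 ewes with litters below 2. All 6 were adult parous ewes in estrus, killed soon after the onset of estrus, and each gave 1 whole ovary that was digested to single cells. No treatment, transgene or sorting step separated the groups, so litter size is a trait of the animal and not an intervention.

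EGF-like ligands are made as membrane-anchored precursors, are cut from the cell surface by proteases of the ADAM family, and bind ERBB receptors on the same or neighbouring cells. Binding pairs the receptors and starts the RAS and MAPK cascade, which feedback inhibitors such as ERRFI1 then damp. In the ovary the surge of luteinizing hormone induces AREG, EREG and BTC in granulosa cells of the preovulatory follicle, and the ligands act through EGFR on granulosa and cumulus cells to drive cumulus expansion and resumption of meiosis.

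Of 52290 barcodes, 36457 cells were retained, from 5189 to 7096 per ewe, with a median of 5189 to 9652 unique molecular identifiers (UMI) per cell. The cells formed 33 clusters, named after marker genes that did not include the genes described here: granulosa-like cells carried FST, INHA and HSD17B1, theca-like cells CYP17A1, INSL3 and LHCGR, macrophage-like cells C1QA, C1QB and CSF1R, perivascular-like cells RGS5 and MYH11, and Schwann-like cells CDH19 and SOX10. Some groups of cells belonged to few ewes. A cluster of 4067 endothelial-like cells came to 99.5% from HLS2 and LLS1, 104 of 106 luteal-like cells came from LLS3, and 221 of 333 epithelial-like cells came from LLS2. In the mural-like granulosa cells 1 sub-cluster was to 96.7% from HLS1 and another to 96.8% from LLS2. Between libraries 297 barcodes were shared, 135 of them among retained cells. Levels are given as UMI of a gene per 10000 UMI of the cell type in a ewe, for ewes with at least 10 cells of the type. All of them come from 3′ counts, so levels of different genes are not compared with each other.

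The ligand AREG, amphiregulin, was found in epithelial-like, luteal-like and macrophage-like cells and hardly at all in granulosa-like cells. In macrophage-like cells its level was 0.286 in HLS1, 0.426 in HLS2, 0.475 in HLS3, 0.397 in LLS1, 0.754 in LLS2 and 1.05 in LLS3, a mean of 0.564 ± 0.283 (SD, n = 6). Every ewe had AREG there, with LLS2 and LLS3 the highest and HLS1 the lowest. In epithelial-like cells the mean was 1.69 ± 0.298 (SD, n = 4), from 1.27 in LLS2 to 1.94 in HLS3. The luteal-like cells, measured in LLS3 only, had 1.6. Macrophage-like cells, 2.98% of the cells, held 37.1% of the 1238 AREG UMI, epithelial-like cells (0.913% of the cells) 32.0% and luteal-like cells (0.291% of the cells) 15.0%.

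In granulosa-like cells AREG had 38 UMI in 2905 cells and a mean level of 0.0146 ± 0.0125 (SD, n = 6), with no ewe above 0.0364. Of these UMI, 21 lay in the mural-like sub-cluster of 216 cells that came mostly from LLS2. Without the sub-clusters mostly of 1 ewe, LLS2 fell from 0.0364 to 0.00330. The level of macrophage-like over granulosa-like cells differed by 5.83 on the log2 scale (SE 0.366, adjusted p = 1.4e-18, edgeR's quasi-likelihood test), in a pair of cell types for which 62.2% of all genes tested were called. None of the other tested cell types had a mean above 0.00390. AREG passed the filter on low counts only through the macrophage-like cells, so the p-value against granulosa-like cells adds no support beyond the levels. Low as it was, AREG in granulosa-like cells was above endothelial-like cells by 2.73 (SE 0.472, adjusted p = 2.4e-06; 62.7% of genes called), stromal-like cells by 2.49 (SE 0.535, adjusted p = 0.00013; 46.9% of genes called) and theca-like cells by 2.11 (SE 0.629, adjusted p = 0.0053; 44.2% of genes called). These 3 differences are given from the main analysis only, with the LLS2 sub-cluster included. They rest on 38 UMI in granulosa-like cells against 19, 10 and 6 in the other types, in the same order. The step to the next type in the order, T and NK-like cells with 2 UMI, did not pass (1.27, adjusted p = 0.27), nor did the steps further down (adjusted p from 0.44 to 0.96 among those with UMI in both). AREG was at 0 in Schwann-like cells, so the macrophage-like level was at least 9.31-fold higher, taking 3 UMI over all cells of the type as the floor.

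The ligand EREG, epiregulin, was for the most part a gene of macrophage-like cells, which held 1074 of its 1474 UMI (72.9%, pooled) while making up 2.98% of the cells. By ewe this share ran from 34.4% to 90.6%, and that of granulosa-like cells from 3.41% to 48.4%. The EREG level in macrophage-like cells was 0.314 in HLS1, 1.31 in HLS2, 1.74 in HLS3, 0.603 in LLS1, 1.63 in LLS2 and 2.02 in LLS3. HLS1 and LLS1 were low and the 4 other ewes high, so the split cut across both groups, and the mean was 1.27 ± 0.674 (SD, n = 6). Luteal-like cells of LLS3 had 1.14. Granulosa-like cells came next among the tested types at 0.0662 ± 0.0403 (SD, n = 6), from 0.0141 in HLS3 to 0.136 in LLS1.

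Macrophage-like cells exceeded granulosa-like cells by 4.65 on the log2 scale for EREG (SE 0.355, adjusted p = 8.0e-15, edgeR's quasi-likelihood test), in the same pair with 62.2% of genes called. Unlike AREG, EREG in granulosa-like cells was above the next type, perivascular-like cells, by 2.47 (SE 0.575, adjusted p = 0.00039; 50.6% of genes called in that pair), and both EREG differences were called in 15 of 15 alternative analyses. It was at 0 in lymphatic endothelial-like, Schwann-like and B lineage-like cells, which put the macrophage-like level at least 239-fold, 21.0-fold and 44.1-fold higher. Among states of granulosa-like cells EREG was at 0.105 ± 0.0640 (SD, n = 6) in mural-like cells and at most 0.0484 in the CXCL10/CYTL1-led, AMH and INHA high and cycling states. A group of 28 granulosa-like cells high in CYP19, the gene of aromatase, had a higher pooled EREG level of 0.605 on 14 UMI, of which 9 came from 3 cells of HLS1. In LLS1, the 1 ewe with 10 or more of these cells, the level was 0.269.

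AREG and EREG were often counted in the same macrophage-like cells. Of 1087 such cells, 132 had a UMI of AREG, 249 had a UMI of EREG and 72 had both, where the product of the separate shares gives 30.2 cells. Deeper cells have more UMI of every gene, and this count was not corrected for depth. Across 64 sums of ewe and cell type in 12 cell types, EREG ranked second of 17092 genes in likeness to AREG (Pearson r of log2 levels 0.86), after ADAM28 (0.87) and before AQP9 (0.85). These points share ewes and cell types, so the correlations are descriptions.

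**Figure D1:**
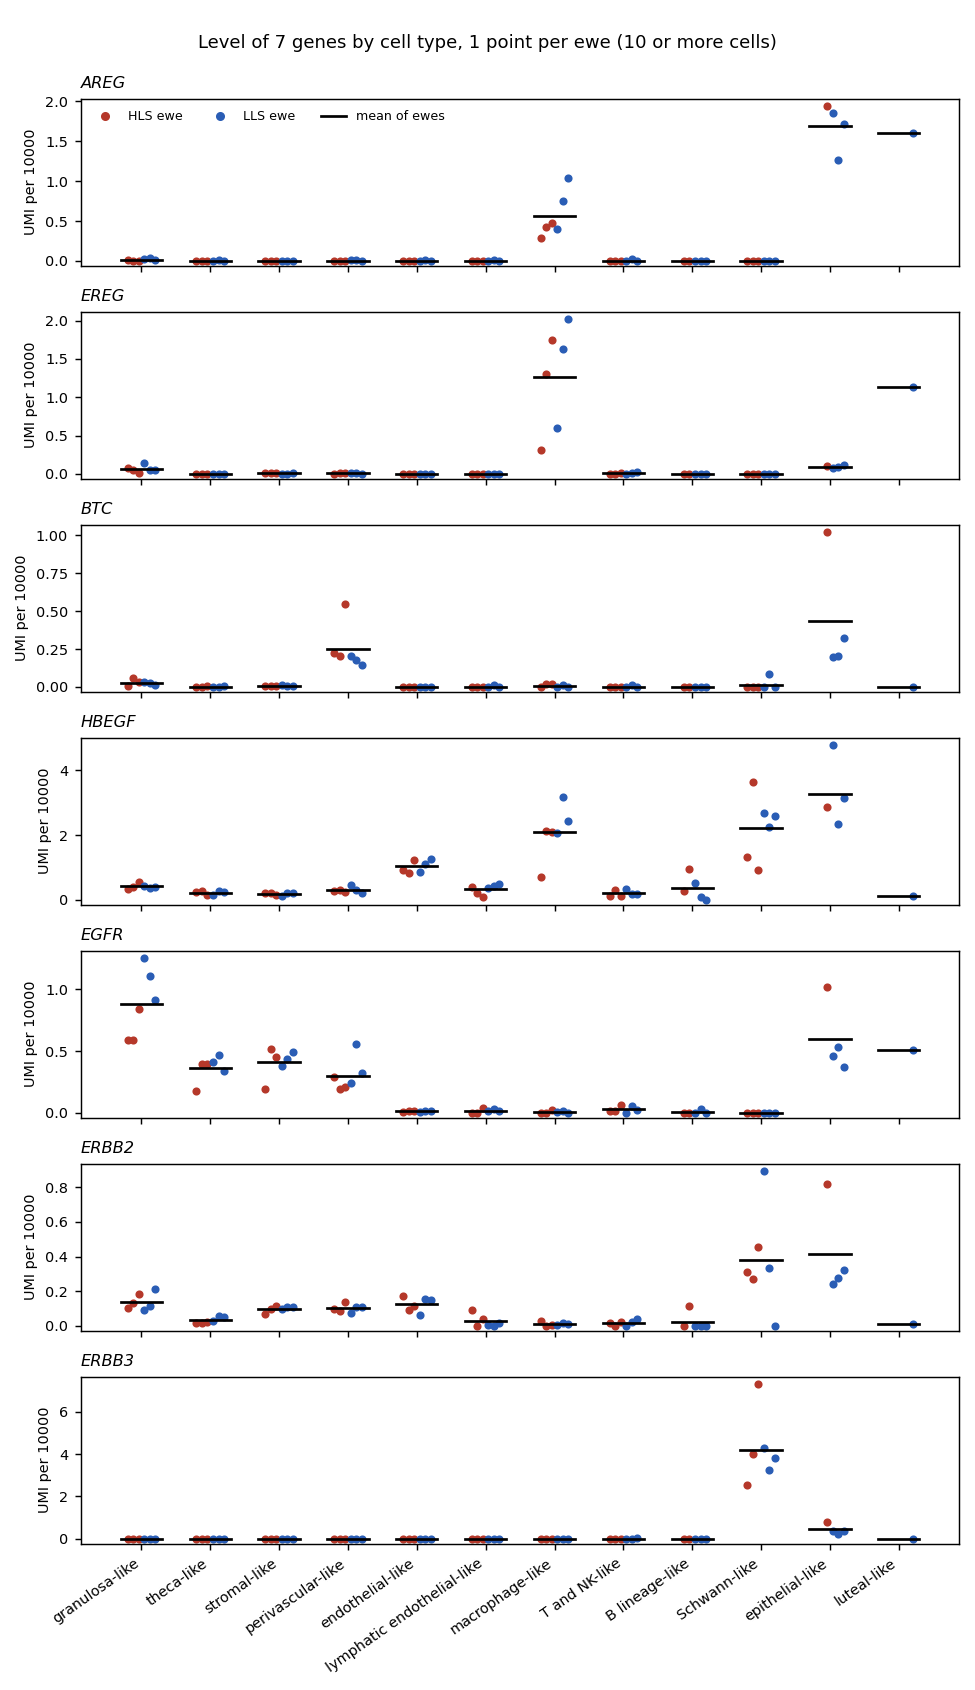
UMI per 10000 (y axis, 1 panel per gene) of the 7 genes in each cell type (x axis), with 1 point per ewe and a line at the mean of the ewes. AREG stands out in macrophage-like, luteal-like and epithelial-like cells, EREG in macrophage-like and luteal-like cells, BTC in perivascular-like and epithelial-like cells, EGFR in granulosa-like cells and ERBB3 in Schwann-like cells.

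The ligand BTC, betacellulin, was found mainly in perivascular-like cells, the contractile and pericyte cells around vessels, and in the few epithelial-like cells (0.437 ± 0.394, SD, n = 4). Its level in perivascular-like cells was 0.227 in HLS1, 0.206 in HLS2, 0.548 in HLS3, 0.203 in LLS1, 0.178 in LLS2 and 0.146 in LLS3. HLS3 stood far above the other 5 ewes, which spanned a narrow range, and the mean was 0.251 ± 0.148 (SD, n = 6). The perivascular-like cells held 305 of 533 BTC UMI (57.2%), granulosa-like cells 80 UMI and epithelial-like cells 70 UMI. Perivascular-like over granulosa-like cells gave a log2 difference of 3.12 (SE 0.350, adjusted p = 1.0e-10, edgeR's quasi-likelihood test; 50.6% of genes called in that pair). BTC passed the filter on low counts through the perivascular-like cells, so this p-value adds no support beyond the levels.

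The perivascular-like cells consisted of a cluster led by MYH11, the myosin heavy chain of smooth muscle, and a cluster led by RGS5, a pericyte gene. In the MYH11-led cluster of 1117 cells BTC was at 0.984, 0.687 and 0.915 in HLS1 to HLS3 and at 1.10, 0.585 and 0.687 in LLS1 to LLS3. In the RGS5-led cluster of 1496 cells it lay between 0.0350 and 0.0685 in all 6 ewes, so the clusters did not overlap in any ewe, with means of 0.827 ± 0.203 and 0.0498 ± 0.0150 (SD, n = 6). EGFR had the opposite order, with 0.127 ± 0.0982 in the MYH11-led and 0.364 ± 0.163 in the RGS5-led cluster. These are given without a test. The MYH11-led cluster made up 81.0% of the perivascular-like cells of HLS3 and from 24.2% to 48.7% of those of the other ewes, which moves with the high BTC level of HLS3; how far it accounts for that level was not tested.

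**Figure D2:**
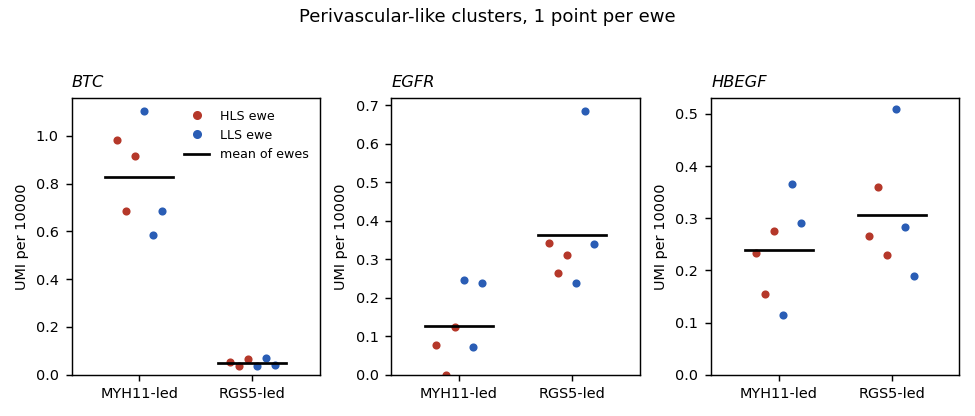
UMI per 10000 (y axis) of BTC, EGFR and HBEGF in the MYH11-led and the RGS5-led cluster of perivascular-like cells, with 1 point per ewe and a line at the mean. BTC lies between 0.585 and 1.10 in the MYH11-led cluster and is at most 0.0685 in the RGS5-led cluster.

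The ligand HBEGF, heparin-binding EGF-like growth factor, was detected in every cell type. Epithelial-like cells had 3.27 ± 1.05 (SD, n = 4), Schwann-like cells 2.23 ± 0.987 and macrophage-like cells 2.10 ± 0.797 (SD, n = 6 each). Endothelial-like cells had 1.04 ± 0.190 (SD, n = 6) and, being 36.0% of the cells, held 13535 of 21770 HBEGF UMI (62.2%). Granulosa-like cells followed with 0.418 ± 0.0740, and the remaining 5 tested types lay between 0.186 and 0.329.

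HBEGF in macrophage-like cells was 0.715 in HLS1, 2.14 in HLS2, 2.11 in HLS3, 2.06 in LLS1, 3.17 in LLS2 and 2.43 in LLS3. HLS1 was again the lowest and the other 5 ewes were all at 2.06 or above. Macrophage-like over endothelial-like cells differed by 1.17 (SE 0.222, adjusted p = 9.5e-06; 61.3% of genes called) and endothelial-like over granulosa-like cells by 1.45 on the log2 scale (SE 0.226, adjusted p = 2.1e-07; 62.7% of genes called). Schwann-like cells, few and shallow, were not separable from macrophage-like cells (log2 difference of −0.65, SE 0.289, adjusted p = 0.067; 0.16 when scaled by total UMI), though without HLS2 or without LLS1 the difference of −0.98 or −0.79 passed (adjusted p = 0.020 and 0.036). Below granulosa-like cells the order was lymphatic endothelial-like, perivascular-like, theca-like, T and NK-like and stromal-like. No neighbours in it passed edgeR's quasi-likelihood test with the ewe as a block (adjusted p from 0.24 to 0.84). T and NK-like over stromal-like cells, at 0.29, passed with doublets kept (0.77, adjusted p = 0.023).

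In endothelial-like cells HBEGF was at 0.927, 0.835 and 1.23 in HLS1 to HLS3 and at 0.854, 1.10 and 1.27 in LLS1 to LLS3. The lowest ewes, HLS2 and LLS1, were the pair that filled the separate endothelial-like cluster, in which the level was 0.689 in HLS2 and 0.779 in LLS1. Without that cluster the values were 0.926, 1.20 and 1.22 in HLS and 1.22, 1.10 and 1.27 in LLS, so HLS2 and LLS1 then lay among the other ewes.

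The endothelial-like clusters also differed in HBEGF. In a cluster of 4263 cells led by ABCG2, CXCL9 and SELP, HBEGF was at 0.985, 1.40 and 1.32 in HLS1 to HLS3 and at 1.62, 1.13 and 1.42 in LLS1 to LLS3, a mean of 1.31 ± 0.226 (SD, n = 6). In a cluster of 685 cells led by GJA5, a connexin of arterial endothelium, and ELN, the gene of elastin, it lay between 0.249 and 0.686, with a mean of 0.540 ± 0.163 (SD, n = 6). The highest ewe of the GJA5-led cluster was thus below the lowest ewe of the ABCG2-led cluster. The CA4-led and the APLN-led clusters had means of 1.06 ± 0.319 and 0.934 ± 0.129 (SD, n = 6 each). These are descriptions without a test.

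**Figure D3:**
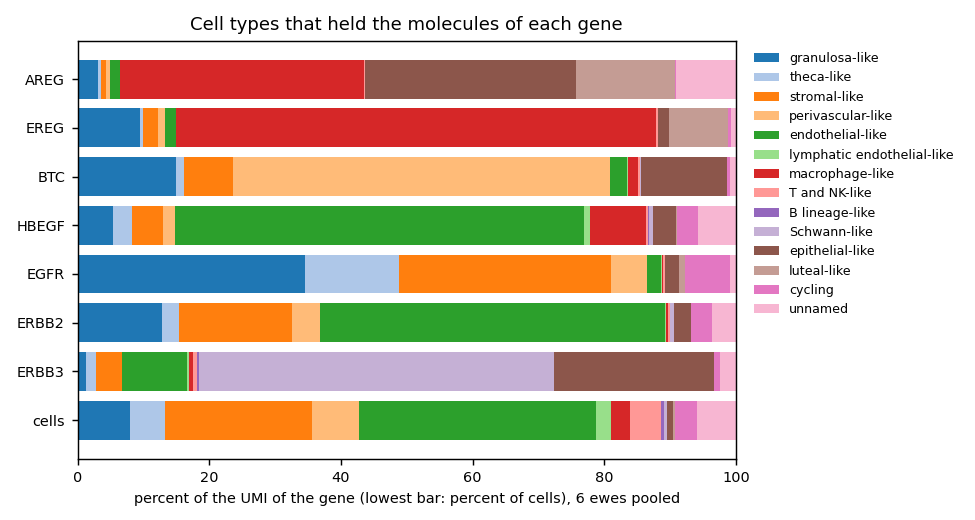
Share of the UMI of each gene (percent, x axis, 6 ewes pooled) that fell in each cell type, with the share of cells in the lowest bar. Macrophage-like cells hold 72.9% of EREG, endothelial-like cells 62.2% of HBEGF, perivascular-like cells 57.2% of BTC and Schwann-like cells 53.9% of ERBB3.

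The receptor EGFR, which binds all 4 ligands, was highest among the tested types in granulosa-like cells. Its level there was 0.588 in HLS1, 0.591 in HLS2, 0.842 in HLS3, 1.25 in LLS1, 1.11 in LLS2 and 0.915 in LLS3. The 3 HLS ewes lay below the 3 LLS ewes, and the mean over all 6 was 0.882 ± 0.268 (SD, n = 6). Stromal-like cells had 0.412 ± 0.116, theca-like cells 0.364 ± 0.102 and perivascular-like cells 0.302 ± 0.134 (SD, n = 6 each). Outside the tested types, epithelial-like cells had 0.596 ± 0.290 (SD, n = 4) and the luteal-like cells of LLS3 0.509, both above stromal-like cells. HLS1 was the lowest ewe in granulosa-like, stromal-like (0.196) and theca-like cells (0.174), but not in perivascular-like cells (0.294).

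Granulosa-like over stromal-like cells differed by 0.95 on the log2 scale for EGFR (SE 0.206, adjusted p = 0.00014, edgeR's quasi-likelihood test; 46.9% of genes called), with 0.71 to 1.24 in 15 alternative analyses, all called. The stromal-like, theca-like and perivascular-like cells were not separable as neighbours (log2 differences of 0.12 and 0.45, adjusted p = 0.68 and 0.093), but both depended on the processing. At clustering resolution 0.4 the first passed with theca-like cells higher (−0.53, adjusted p = 0.046). The second passed without HLS1 (0.65, adjusted p = 0.031), without LLS1 (0.51, adjusted p = 0.044), with doublets kept (0.60, adjusted p = 0.036) and at resolution 0.4 (0.73, adjusted p = 0.0094). Perivascular-like cells exceeded T and NK-like cells by 2.68 (SE 0.406, adjusted p = 2.2e-07; 56.6% of genes called). Macrophage-like cells, the main site of EREG, had 9 EGFR UMI in 1087 cells, endothelial-like cells had a mean of 0.0125, and Schwann-like cells had none, so the granulosa-like level was at least 14.6-fold higher than theirs. By UMI, EGFR was spread over granulosa-like (34.6%), stromal-like (32.1%) and theca-like cells (14.2%).

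The receptor ERBB2, which binds no ligand of its own and serves as partner of the other receptors, was low and widespread. Its mean level was 0.415 ± 0.270 in epithelial-like cells (SD, n = 4) and 0.377 ± 0.294 in Schwann-like cells, where it rests on 17 UMI. Granulosa-like cells had 0.139 ± 0.0475, endothelial-like cells 0.124 ± 0.0423, perivascular-like cells 0.102 ± 0.0215 and stromal-like cells 0.0989 ± 0.0173 (SD, n = 6 each). Neighbours in the order from Schwann-like to stromal-like cells did not pass with the ewe as a block (adjusted p from 0.16 to 0.94, edgeR's quasi-likelihood test). Schwann-like over granulosa-like cells, at 0.87, passed with total UMI scaling (1.36, adjusted p = 0.032) and with DESeq2 (1.13, adjusted p = 0.041), and endothelial-like over perivascular-like cells, at 0.41, passed without the clusters mostly of 1 or 2 ewes (0.76, adjusted p = 0.0058). The first step that passed was from stromal-like to theca-like cells, at 0.0330 ± 0.0171, with a log2 difference of 1.68 (SE 0.289, adjusted p = 3.8e-06, edgeR's quasi-likelihood test; 44.6% of genes called).

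Within the stromal-like cells ERBB2 and EGFR ran in opposite orders over 3 clusters. ERBB2 was at 0.184 ± 0.0411 in a cluster of 1472 cells led by SERPINF1 and DPT, at 0.109 ± 0.0241 in 4343 cells led by ACTA2 and COL1A1, and at 0.0592 ± 0.0179 in 2302 cells led by LUM and PTCH1 (SD, n = 6 each). EGFR was at 0.279 ± 0.125, 0.340 ± 0.101 and 0.538 ± 0.138 in the same clusters. In each of the 6 ewes ERBB2 was higher and EGFR lower in the SERPINF1-led than in the LUM-led cluster, with the ACTA2-led cluster between them for ERBB2 in all 6. The median depth of these clusters was 5198, 3723 and 8762 UMI per cell, and no test was made between them.

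The receptor ERBB3, which binds neuregulins and signals mainly through its partners, was concentrated in Schwann-like cells. Its level there was 2.55 in HLS1, 3.99 in HLS2, 7.30 in HLS3, 4.28 in LLS1, 3.25 in LLS2 and 3.80 in LLS3, a mean of 4.19 ± 1.64 (SD, n = 6). All 6 ewes were high, and 136 cells held 178 of the 330 ERBB3 UMI. HLS3 was above the rest, but on only 10 cells with 21927 UMI of all genes. Epithelial-like cells had 0.448 ± 0.257 (SD, n = 4) and endothelial-like cells 33 UMI in 13136 cells. Schwann-like over endothelial-like cells gave a log2 difference of 9.88 (SE 0.436, adjusted p = 3.7e-23, edgeR's quasi-likelihood test; 32.9% of genes called), and against perivascular-like cells, at 0 UMI, the Schwann-like level was at least 1841-fold higher. No other tested type had a mean ERBB3 level above 0.00434. ERBB3 passed the filter on low counts only through the Schwann-like cells, so the p-value adds no support beyond the levels. Granulosa-like cells had 4 ERBB3 UMI.

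Shares of cells with a UMI were read after thinning each cell to 2000 UMI, since depth differed between types; the intervals (95%, exact binomial) cover counting error only. ERBB3 was found in 41.9% of Schwann-like cells (31.8 to 52.6) and in 0.0234% of endothelial-like cells. EREG was found in 15.3% of macrophage-like cells (13.1 to 17.7) and AREG in 6.91% (5.43 to 8.65), against 0.0624% and 0.0312% of endothelial-like cells. These background shares come from cells of greater median depth before thinning (8825 UMI, against 6217 in macrophage-like and 2759 in Schwann-like cells). EGFR was found in 12.7% of granulosa-like cells (11.4 to 14.0), 7.26% of stromal-like cells and 6.14% of theca-like cells, against 0.390% of endothelial-like cells. BTC was found in 5.72% of perivascular-like cells (4.77 to 6.80) and 0.0312% of endothelial-like cells. HBEGF was present even in the type with little of it, with 3.31% of T and NK-like cells against 15.7% of endothelial-like and 28.8% of macrophage-like cells. ERBB2 was found in 7.53% of Schwann-like cells (3.08 to 14.9), 2.74% of granulosa-like cells and 0.174% of T and NK-like cells. In granulosa-like cells EREG was found in 0.686% (0.407 to 1.08) and BTC in 0.457% (0.237 to 0.797) of the thinned cells.

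Granulosa-like cells were divided into states by sub-clustering that also left out these genes, with 1122 of the 2905 cells left unnamed. The CXCL10/CYTL1-led state joined sub-clusters of 238 and 111 cells that scored highest for markers of early follicles (WT1, WNT6 and CD34); none of these was among their 10 leading genes, and those of the smaller one held RGS5 and HSD3B1, markers of perivascular and luteal cells. It is therefore called by its leading genes, and was not compared between HLS and LLS. The AMH and INHA high state joined sub-clusters of 256 and 188 cells, with a median depth of 12420 and 2990 UMI. The smaller one had IHH but neither AMH nor INHA among its 10 leading genes, so the name fits it less well. Among the 4 states tested, EGFR was highest in mural-like cells, the granulosa cells that line the follicle wall, at 0.682, 0.828 and 1.498 in HLS1 to HLS3 and at 1.95, 1.51 and 1.48 in LLS1 to LLS3 (mean 1.32 ± 0.477, SD, n = 6). The cycling state had 0.577 ± 0.203 (SD, n = 5), the AMH and INHA high state 0.535 ± 0.203 and the CXCL10/CYTL1-led state 0.453 ± 0.207 (SD, n = 6 each). The 28 CYP19 high cells, which entered no test, had a pooled level of 1.30 on 30 UMI, against a pooled 1.25 in mural-like cells, and the unnamed granulosa-like cells had 0.543 ± 0.276 (SD, n = 6). In every ewe the mural-like level was above that of the AMH and INHA high and the CXCL10/CYTL1-led state, and HLS1 was the lowest ewe in all of these 3 states. HLS1 had few cells in 2 of them, with 4 EGFR UMI in 19 AMH and INHA high cells and a level of 0.0789 in 27 CXCL10/CYTL1-led cells.

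Against the mean of the other states, EGFR was higher in mural-like cells by 1.38 on the log2 scale (SE 0.148, adjusted p = 2.0e-09; 51.4% of 7421 genes called) and lower in CXCL10/CYTL1-led cells by −0.84 (SE 0.223, adjusted p = 0.0026; 48.5% of genes called). The latter were not uniform: their sub-cluster of 238 cells had a pooled 0.611 on 52 UMI, that of 111 cells 0.241 on 11 UMI. The larger one lay above the pooled AMH and INHA high (0.539) and cycling (0.517) levels. Their median depth was 3046 and 3889 UMI, against 11060 to 14550 in mural-like sub-clusters. The differences of the cycling state (−0.39, adjusted p = 0.12; 38.7% of genes called) and of the AMH and INHA high state (−0.15, adjusted p = 0.57; 32.6% of genes called) did not pass edgeR's quasi-likelihood test. The cycling state passed without HLS2 (−0.56, adjusted p = 0.0499) and at the coarser and the finer sub-clustering (−0.83 and −0.80, adjusted p = 0.0027 and 0.0040). At these resolutions no CXCL10/CYTL1-led state, the one with the lowest mean EGFR as a whole, entered the fit. The mean of the others was then over fewer states, so these values are not of the same contrast. Without the sub-clusters that came mostly from 1 ewe the mural-like difference was 1.26 (adjusted p = 1.2e-08). Of the 7 genes only EGFR and HBEGF had enough counts in all 4 states to be tested.

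HBEGF had another order. Among the tested states it was highest in CXCL10/CYTL1-led cells, at 0.710, 1.24 and 1.27 in HLS1 to HLS3 and at 0.732, 1.13 and 0.793 in LLS1 to LLS3 (mean 0.980 ± 0.263, SD, n = 6), on 130 UMI in 349 cells. The lowest of these ewes was above the mean of every other state, and the ewes of both groups were mixed along the range. Mural-like cells had 0.418 ± 0.0780, the cycling state 0.213 ± 0.0676 and the AMH and INHA high state 0.173 ± 0.115. Within the AMH and INHA high state the pooled level was 0.250 on 81 UMI in the sub-cluster of 256 cells. It was 0.0306 on 2 UMI in the shallow sub-cluster of 188 cells. The unnamed granulosa-like cells had a mean of 0.433 but were not uniform. An unnamed sub-cluster of 160 cells, with WT1 among its leading genes, had a pooled level of 1.15 on 110 UMI. In it HLS3, with 129 of the cells, had 1.13 and LLS2 had 0.878. High HBEGF was thus not particular to the CXCL10/CYTL1-led state.

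CXCL10/CYTL1-led cells exceeded the other states by 1.77 on the log2 scale for HBEGF (SE 0.235, adjusted p = 3.0e-07, edgeR's quasi-likelihood test) and their neighbour in the order, mural-like cells, by 1.09 (SE 0.241, adjusted p = 0.00043; 44.3% of genes called). The AMH and INHA high state was lower than the others by −1.17 (SE 0.261, adjusted p = 0.00086) and the cycling state by −0.90 (SE 0.283, adjusted p = 0.011). These lower calls were lost at the coarser and the finer resolution, where no CXCL10/CYTL1-led state entered the fit. The mean of the others was then over fewer states. The differences were −0.50 and −0.60 for the AMH and INHA high state (adjusted p = 0.22 and 0.14) and −0.40 and −0.37 for the cycling state (adjusted p = 0.31 and 0.38). How far the missing state accounts for the lost calls was not tested. The call of the cycling state was also lost without HLS2 (−0.86, adjusted p = 0.067). Mural-like cells did not pass (0.31, adjusted p = 0.21) but did at these resolutions (0.90 and 0.97, adjusted p = 0.0018 and 0.0012), where no CXCL10/CYTL1-led state entered the fit. Scaling by total UMI moved the median of all genes from −0.03 to 0.19 in the CXCL10/CYTL1-led contrast and from −0.03 to −0.22 in the AMH and INHA high contrast, and the split of higher and lower calls from 1757 and 1840 to 2415 and 1231 and from 1367 and 1052 to 838 and 1987.

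**Figure D4:**
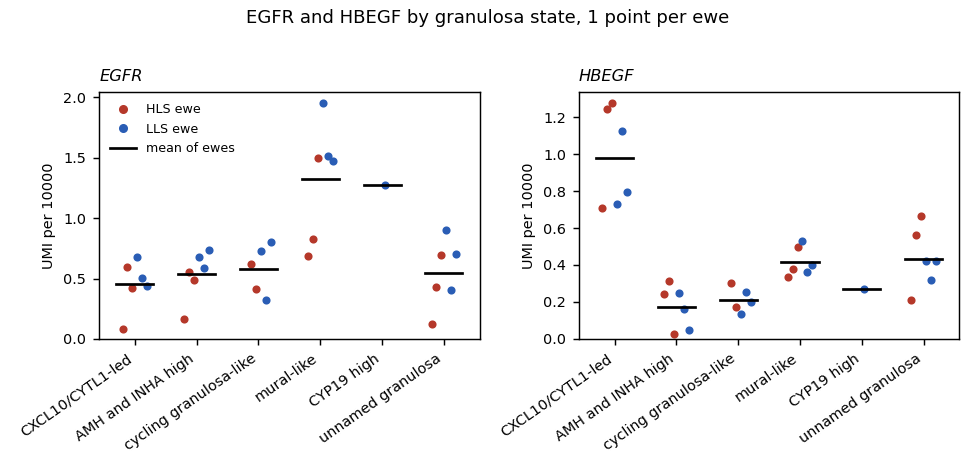
UMI per 10000 (y axis) of EGFR and HBEGF in each granulosa state (x axis), with 1 point per ewe and a line at the mean. EGFR is high in mural-like cells (mean 1.32) and in the 1 ewe with a value for CYP19 high cells (1.28), and HBEGF is highest in CXCL10/CYTL1-led cells (mean 0.980).

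The wider pathway was read from a list of 52 other genes, of which 50 were in the count tables and 31 were tested between granulosa states. In mural-like cells 12 of the 31 were higher and 3 lower, against 26.3% and 25.1% of all genes tested, with a median log2 difference of 0.25 against −0.003 over all genes. All 6 feedback inhibitors with enough counts were called there, 5 higher and 1 lower: ERRFI1, which binds the kinase domain of EGFR, was higher by 2.96 (SE 0.135, adjusted p = 6.0e-18) and DUSP5, a phosphatase of ERK, by 1.93 (SE 0.181, adjusted p = 1.1e-10), while DUSP6, another ERK phosphatase, was lower (−0.60, SE 0.187, adjusted p = 0.0084; all edgeR's quasi-likelihood test). PTX3, a pentraxin of the expanded cumulus matrix, was higher by 2.34 (SE 0.255, adjusted p = 2.7e-09), and PGR, the progesterone receptor that the ovulatory surge induces, was lower (−1.09, SE 0.289, adjusted p = 0.0021), as was the adaptor GAB1 (−0.68, adjusted p = 0.010).

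In CXCL10/CYTL1-led cells 12 of the 31 genes were higher and 5 lower, against 23.7% and 24.8% of all genes. PTGS2, the cyclooxygenase of the ovulatory response, was higher by 3.49 (SE 0.357, adjusted p = 2.1e-09) and PGR by 1.22 (SE 0.338, adjusted p = 0.0036), whereas FSHR, the receptor of follicle-stimulating hormone, was lower (−2.44, SE 0.232, adjusted p = 5.4e-10). In the AMH and INHA high state 2 were higher, FSHR by 1.6 (SE 0.147, adjusted p = 8.5e-10) and HRAS by 0.60 (SE 0.215, adjusted p = 0.031), and 10 were lower, against 18.4% and 14.2% of all genes; ERRFI1 fell by 1.03 (SE 0.179, adjusted p = 4.7e-05). In the cycling state 3 were higher and 5 lower, against 20.7% and 18.0% of all genes, and ERRFI1 fell by 2.01 (SE 0.213, adjusted p = 2.8e-09).

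Among the family members outside the list of 7, the receptor ERBB4 was highest in epithelial-like cells (mean level 0.639) and second in B lineage-like and granulosa-like cells (0.197 and 0.148). The ligand TGFA was at 0.173 in luteal-like and 0.164 in epithelial-like cells and at most 0.0194 in the other types. The neuregulin NRG2 was highest in stromal-like cells (0.0775) and NRG1 in epithelial-like cells (0.116), and EGF was not among the genes counted.

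Between HLS and LLS ewes, none of the 7 genes was called in any cell type. Of 63 combinations of a gene with 9 cell types, 25 had enough counts to be tested and 0 passed at an adjusted p of 0.05, the background being 0% of genes called in each of the 9 types. DESeq2 called 0 of the 25 as well. At an unadjusted p under 0.05 edgeR gave 4 and DESeq2 3 of the 25, against 3.55% of all gene tests by edgeR, and in 3 the ewes of the groups did not overlap, against 9.42% of all gene tests. The difference was positive (HLS higher) in 10 and negative in 15. In the mural-like and the AMH and INHA high state 0 of 6 tests were called by edgeR or DESeq2, with 1 and 0 at an unadjusted p under 0.05, where 0% of all genes were called. The number of ewes limits what can be seen: the standard errors of the 4 differences below lay between 0.193 and 0.420 on the log2 scale.

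EGFR in granulosa-like cells was 0.674 ± 0.146 in HLS and 1.09 ± 0.169 in LLS (SD, n = 3 each), without overlap. In this type 15.0% of all genes tested did not overlap, 1546 with HLS below and 241 with HLS above, so EGFR went the common way. The log2 difference of EGFR was −0.50 (SE 0.193, unadjusted p = 0.031, adjusted p = 0.94, edgeR's quasi-likelihood test) and it kept its sign in 15 of 15 alternative analyses, from −0.69 to −0.40. The makeup of these cells differed between ewes: mural-like cells, the state with the most EGFR, were 70.5%, 10.6% and 14.7% of granulosa-like cells in HLS1 to HLS3 and 19.7%, 44.4% and 18.7% in LLS1 to LLS3. Without the 2 mural-like sub-clusters that came mostly from HLS1 and from LLS2, the levels were 0.327, 0.592 and 0.842 in HLS and 1.24, 0.627 and 0.918 in LLS, so the groups overlapped, and the difference was −0.47 (unadjusted p = 0.19).

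Within mural-like cells EGFR was 1.003 ± 0.435 in HLS and 1.65 ± 0.264 in LLS (SD, n = 3 each), with HLS3 inside the LLS range (log2 difference −0.63, SE 0.272, unadjusted p = 0.042, adjusted p = 0.999, edgeR's quasi-likelihood test). The difference kept its sign in 11 of 11 alternative analyses, from −0.97 without HLS3 (adjusted p = 0.75) to −0.47 without HLS1 (unadjusted p = 0.12). Without the sub-clusters mostly of 1 ewe it was −0.58 (unadjusted p = 0.10, edgeR's quasi-likelihood test). In the AMH and INHA high state the HLS ewes had 0.161 (on 4 UMI in 19 cells), 0.555 and 0.489 and the LLS ewes 0.677, 0.587 and 0.739. Its shallow sub-cluster, with a pooled EGFR level of 0.214 against 0.605 in the other, held 66 of the 94 cells of HLS3 and 42 of the 54 cells of LLS3. Over the whole state the groups did not overlap, as for 8.96% of all genes tested in it (331 with HLS below, 168 with HLS above). The EGFR difference of −0.48 was within the error (SE 0.350, unadjusted p = 0.19).

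BTC in perivascular-like cells was the only one of the 3 cases without overlap in which HLS was higher, and the gap was narrow: the lowest HLS ewe had 0.206 and the highest LLS ewe 0.203, where 8.87% of all genes did not overlap (278 with HLS above, 685 with HLS below). The log2 difference was 0.93 (SE 0.355, unadjusted p = 0.025, adjusted p = 0.99, edgeR's quasi-likelihood test), and without HLS3, the ewe rich in MYH11-led cells, it was 0.45 (unadjusted p = 0.14). Within the MYH11-led cluster the groups overlapped, as the values above show.

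AREG in macrophage-like cells was 0.396 ± 0.0977 in HLS and 0.732 ± 0.325 in LLS (SD, n = 3 each), with LLS1 inside the HLS range (log2 difference −0.83, SE 0.364, unadjusted p = 0.044, adjusted p = 0.85, edgeR's quasi-likelihood test). Without LLS3 the difference was −0.46 (unadjusted p = 0.23). EREG, counted in many of the same cells, differed by −0.32 (SE 0.526, unadjusted p = 0.56) and HBEGF by −0.61 (SE 0.351, unadjusted p = 0.11). All 3 ligands had a negative sign, and for all 3 HLS1 was the lowest ewe.

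ERBB2 in theca-like cells, the hormone-producing cells outside the follicle wall, was 0.0192, 0.0193 and 0.0226 in HLS1 to HLS3 and 0.0285, 0.0595 and 0.0489 in LLS1 to LLS3, on 82 UMI in all. The groups did not overlap, as for 10.2% of all genes in theca-like cells (998 with HLS below, 254 with HLS above). The log2 difference was −1.03 (SE 0.420, unadjusted p = 0.033, adjusted p = 0.98, edgeR's quasi-likelihood test). At clustering resolution 0.4 it was −0.67 (unadjusted p = 0.062). In the type where most ERBB2 UMI lay, endothelial-like cells, the difference was 0.20 (SE 0.433, unadjusted p = 0.66). HBEGF in the same cells differed by −0.03 (SE 0.221), and ERBB3 in Schwann-like cells by 0.18 (SE 0.380, unadjusted p = 0.63).

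**Figure D5:**
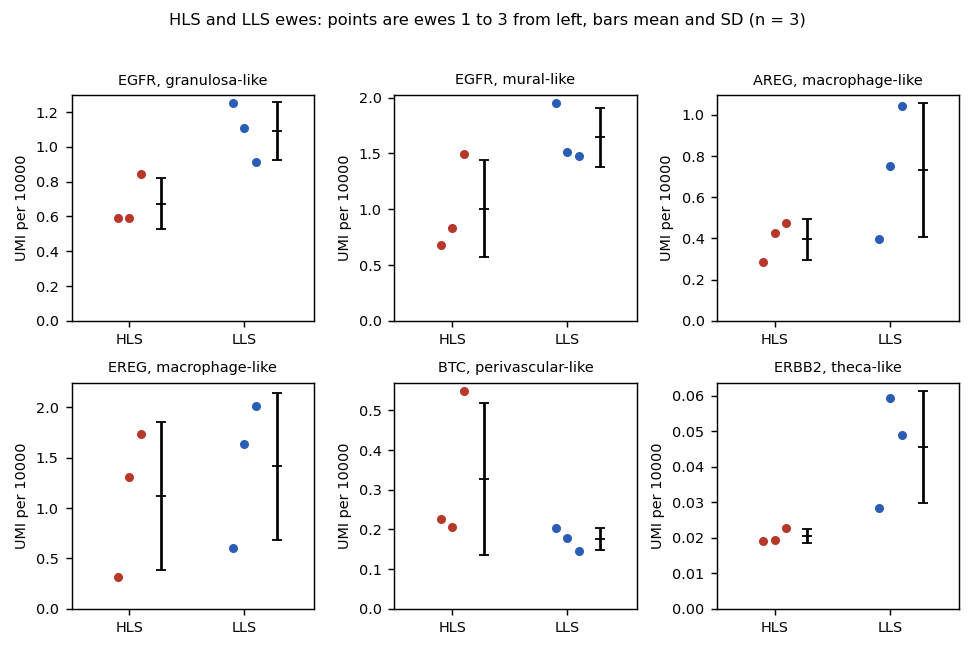
UMI per 10000 (y axis) in HLS and LLS ewes for 6 pairs of gene and cell type or state, with ewes 1 to 3 from left to right in each group and the mean and SD (n = 3) beside them. The groups do not overlap for EGFR in granulosa-like cells, BTC in perivascular-like cells and ERBB2 in theca-like cells, and they overlap in the other 3 panels.

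Whether the HLS to LLS difference of a gene varied between cell types was tested with the interaction of group and cell type. It was called for 0.00756% of 13228 genes and for 0 of the 7, whose unadjusted p from edgeR ran from 0.31 for AREG to 0.996 for EREG. The other genes of the pathway gave 316 tests between HLS and LLS in the 9 cell types, of which 0 were called by edgeR or by DESeq2, with 15 and 10 at an unadjusted p under 0.05.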

How the data were processed

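Each of the 6 libraries (1 whole ovary per ewe, 3′ v3 chemistry) was deposited as a matrix of raw UMI counts that the authors made with Cell Ranger 5.0.0 and STAR, per the file headers and the submitters' processing notes; the genome build is not given in the sources used here. Barcodes were kept with at least 200 genes, 1000 UMI, a log10 gene to log10 UMI ratio of 0.7, at most 10% mitochondrial and 5% haemoglobin UMI (38464 of 52290), and 2007 called doublets were removed, using 2 simulated doublets per cell and 0.8% expected per 1000 cells. No cell annotation was used; 2000 variable genes, 30 components, 20 neighbours and Leiden clustering at resolution 0.8 gave the clusters, with the 7 genes and the pathway list left out. Clusters were named from marker lists, so that names are "-like", and 5 clusters stayed unnamed; a granulosa state whose leading genes did not match its marker list is called by those genes and was left out of the HLS to LLS comparison. Raw counts were summed per ewe and cell type (at least 10 cells) and tested with edgeR 4.0.16 (quasi-likelihood F test, filterByExpr, TMM factors) and Benjamini-Hochberg adjustment over all genes tested, threshold 0.05: HLS against LLS per type and state, pairs of types and states with the ewe as a block, each state against the mean of the others, and a group by cell type interaction. Contrasts of a type with the mean of all others were fitted too, but have no finite value for a gene without UMI in 1 type, so the 7 genes are given by pairs that are neighbours in the order of levels. For AREG and ERBB3 some pairs further apart are given as well. In the fit of cell types a gene could pass the filter on low counts through 1 type alone. A log2 difference is the first-named group minus the second.

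The labels number the ewes within each group and give no other origin for replicates. P-values between HLS and LLS within a type or state rest on the spread between these 6 animals. Those of the other tests rest on the spread left after the term for the ewe. Total UMI per library ranged from 43329214 to 75549906. A gene at 0 was given a floor of 3 UMI over all cells of the type. The fits were tested on simulated counts with known changes. The 7 genes, the pathway list, the marker lists and the tests were chosen with earlier results of these data known. The named genes are all 7, and from the pathway list up to 3 per direction and contrast with the largest change among those called. Alternatives were total UMI scaling, no filter, DESeq2 1.42.0, a replicate block, no ewe term, leaving out each ewe, keeping doublets, a 20% mitochondrial limit, resolutions of 0.4 and 1.6, and, for levels and shares, means over cells and no thinning. Those without clusters or sub-clusters mostly of 1 or 2 ewes (90% or more) were chosen after seeing the data. Epithelial-like, luteal-like, B lineage-like, cycling and unnamed cells are given as levels only.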

Additional observations from a re-analysis of the deposited data

Results flagged for a closer look

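AREG was high in cells that entered no comparison between groups. An unnamed cluster of 129 cells led by S100A8, G0S2 and S100A9 had an AREG level of 2.68 per 10000 UMI, on 99 UMI, against 0.00208 in endothelial-like cells. By ewe the level was 0.513, 4.62 and 4.68 in HLS1 to HLS3 and 1.91 and 3.47 in LLS1 and LLS2, and 52 of its cells came from HLS3. Its cells were shallow, with a median of 1235 UMI, and for that reason were given no name. HBEGF had 55 UMI there and EREG 5.

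In luteal-like cells, which lay outside all tests because only LLS3 had 10 or more of them, AREG was at 1.6 per 10000 UMI on 186 UMI, and EREG at 1.14 on 132 UMI. AREG was found in 19.8% of the 81 luteal-like cells that could be thinned to 2000 UMI (95% exact binomial interval 11.7 to 30.1).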

How the results depend on the processing

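For 39 log2 differences of the 7 genes (between HLS and LLS, between states, and between neighbouring types or states with an upper level of at least 0.1), 501 values under the alternatives kept their direction and side of the threshold, 15 became called, 6 lost their call and 20 turned sign, all of the last between neighbours not called in the main analysis. The signs turned for HBEGF in Schwann-like over macrophage-like cells (0.16 with total UMI), perivascular-like over theca-like cells (−0.010 with doublets kept) and theca-like over T and NK-like cells (−0.029 with DESeq2, −0.27 with doublets kept, −0.027 at resolution 0.4). For EGFR in stromal-like over theca-like cells they were −0.032 with doublets kept and −0.53 at resolution 0.4, the 1 turned value that was called (adjusted p = 0.046). ERBB2 in granulosa-like over endothelial-like cells gave −0.074 without a filter, −0.013 without a term for the ewe and −0.33 without clusters mostly of 1 or 2 ewes, and in perivascular-like over stromal-like cells 0.021 with total UMI. Leaving out each ewe gave −0.12 to 0.22 for HBEGF in lymphatic endothelial-like over perivascular-like cells, −0.19 to 0.30 in perivascular-like over theca-like and −0.069 to 0.33 in theca-like over T and NK-like cells, −0.047 to 0.12 for EGFR in stromal-like over theca-like cells, and for ERBB2 −0.0023 to 0.28 in granulosa-like over endothelial-like and −0.13 to 0.0028 in perivascular-like over stromal-like cells. The cause was not tested. Of 31 further neighbours with an upper level below 0.1, 2 were called, also in 15 of 15 alternatives; among the others the sign turned in 18, and calls appeared for ERBB2 in theca-like over lymphatic endothelial-like cells (6 of 15 alternatives) and EGFR in T and NK-like over lymphatic endothelial-like cells (2 of 15).

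Counts of genes called between HLS and LLS over all genes, 0 in each cell type, rose without a filter on low counts to 4 (Schwann-like), 34 (T and NK-like), 42 (lymphatic endothelial-like), 150 (macrophage-like), 14 (perivascular-like) and 53 (theca-like), and in the states to 21 (AMH and INHA high) and 92 (mural-like), with 12 (from 1) for the interaction. DESeq2 gave 3, 5, 1, 3, 18, 2 and 1 in T and NK-like, endothelial-like, granulosa-like, lymphatic endothelial-like, macrophage-like, perivascular-like and stromal-like cells, and 1 in the AMH and INHA high state. Total UMI gave 1 in T and NK-like cells, the 20% mitochondrial limit 2 in T and NK-like cells and doublets kept 3 in macrophage-like cells. Leaving out each ewe gave 0 to 2 in T and NK-like and endothelial-like cells, 0 to 1 in macrophage-like, perivascular-like, stromal-like and theca-like cells and 0 to 4 for the interaction. None of these alternatives called the 5 HLS to LLS values of the 7 genes that had an unadjusted p under 0.05. Ewes numbered 3 varied together weakly (r of deviations from 0.042 to 0.35 over the 9 cell types) and those numbered 1 or 2 did not (−0.37 to 0.017), so the numbers were not taken as pairs; with the number as a replicate block 3 genes were called in macrophage-like cells. Total UMI moved the median log2 difference of all genes from −0.34 to 0.29 for Schwann-like cells against the others, from −0.11 to −0.43 for T and NK-like and from −0.04 to −0.30 for macrophage-like cells. Without thinning the shares of cells with a UMI were 12.1% (AREG) and 22.9% (EREG) in macrophage-like, 8.88% (BTC) in perivascular-like, 38.4% (EGFR) in granulosa-like and 57.4% (ERBB3) in Schwann-like cells. Each group held 3 ewes, and several of the values rest on 17 to 459 UMI. Differences well above their standard error did not pass, also where counts were higher. EGFR in granulosa-like cells, on 2322 UMI, differed by −0.50 (SE 0.193) and BTC in perivascular-like cells, on 305 UMI, by 0.93 (SE 0.355). Their adjusted p from edgeR's quasi-likelihood test was 0.94 and 0.99.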

Other observations

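The epithelial-like cells were made of 3 clusters that differed in AREG. A cluster of 69 cells led by the ciliary genes CCDC39 and DNAH5 had 2.69 per 10000 UMI, a cluster of 233 cells led by OVGP1, the oviduct glycoprotein, had 1.20, and a cluster of 31 cells led by PRG4, all from LLS2, had 0 on no UMI. HBEGF was at 2.65, 3.23 and 0.191 in the same clusters, and EGFR at 0.142, 0.558 and 1.11, the opposite order to AREG. Each is the pooled value of few ewes, and no test was made.

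The gene whose level across the 64 sums of ewe and cell type was most like that of BTC was HTR2A, a serotonin receptor (Pearson r 0.87). For EGFR these were TPM1 and GATA6 (0.88 each), for HBEGF ZSWIM6 (0.75), for ERBB2 TRIM2 (0.73) and for ERBB3 GAL3ST1 (0.94). Among the 7 genes themselves the closest pair after AREG with EREG was BTC with EGFR (0.52), and HBEGF with EGFR had −0.25.

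In granulosa-like cells 710 had a UMI of HBEGF, 1115 a UMI of EGFR and 352 both, where the product of the shares gives 272.5. EGFR and ERBB2 were counted together in 169 granulosa-like cells, against 123.6 by the same product. Both counts grow with the depth of a cell and were not corrected for it.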
